A study of Homo sapiens with 8 samples.

Results

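The miR-148/152 family comprises miR-148a, miR-148b and miR-152, and was described here by the 5 mature miRNAs hsa-miR-148a-3p, hsa-miR-148a-5p, hsa-miR-148b-3p, hsa-miR-148b-5p and hsa-miR-152-3p, named below without the species prefix. They were taken by name from the table of raw counts, and are 5 of its 1780 miRNAs. The libraries came from DLD1 and HT29, both established human cell lines of colorectal adenocarcinoma, which is the main form of colorectal cancer (CRC). The cells were cultivated for 6 days either as a flat monolayer on plastic (2D) or as multicellular spheroids (MCS), which are round aggregates formed in wells precoated with agarose. Flasks were seeded with 35000 DLD1 or 100000 HT29 cells, and spheroid wells with 7000 DLD1 or 3500 HT29 cells. DLD1 cells grew in RPMI and HT29 cells in DMEM with the same supplements, the labels name no other treatment, and each line is a single culture line and not a tissue. There were 8 libraries, 2 replicates of each line in each culture. The labels call them biological replicates and do not say whether they were separate cultures, so the p-values measure only the spread between these libraries. The small RNA kit was version V3 for DLD1 and V2 for HT29, so that the cell line, the medium and the kit cannot be told apart, and MCS was compared with 2D within each line.

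A miRNA finds its targets mainly through its seed, the short stretch next to its first base, and miRNAs with the same seed are grouped as a family because they can bind the same sites. The miR-148/152 family is known for repressing DNMT1, the maintenance DNA methyltransferase, and miR-148a also represses DNMT3B, a de novo methyltransferase. In CRC, members are often described as less abundant in tumours than in normal mucosa, and further known targets include CCKBR, the gastrin receptor, and ROCK1, a kinase of the actin skeleton. Each hairpin precursor can give 2 mature miRNAs, one from its 5p arm and one from its 3p arm. In this family the 3p arm carries the common seed and is usually the abundant one.

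The mature 3p sequences are shown because the seed defines the family and the remaining bases decide whether reads of its members can be told apart. Sequences are from RefSeq (GRCh38.p14), are written 5′ to 3′, and have bases 2 to 8, the seed, in capitals.
miR-148a-3p: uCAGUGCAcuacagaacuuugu
miR-148b-3p: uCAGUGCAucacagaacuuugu
miR-152-3p: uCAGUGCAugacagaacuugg
By name, 1557 of the 1780 miRNAs of the table and 4 of the 5 members were matched to RefSeq. Opposite arms follow in the same form. miR-152-5p is no member, but comes from the hairpin of miR-152-3p and was counted too.
miR-148b-5p: aAGUUCUGuuauacacucaggc
miR-152-5p: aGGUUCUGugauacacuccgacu

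The 3p members were identical over the whole seed and differed behind it. Counted from 1 at the 5′ end, miR-148a-3p and miR-148b-3p differed by C9U and U10C, with the base of miR-148a-3p first, and were identical at 20 of 22 positions. miR-148a-3p and miR-152-3p differed by C9U, U10G and U20G over 21 shared positions, and miR-148b-3p and miR-152-3p by C10G and U20G. The counting of reads that match more than 1 mature miRNA is not stated, so that counts of one 3p member could hold reads of another. Among the 2370 mature miRNAs of the reference, 3 carried the seed CAGUGCA at bases 2 to 8, and these were the 3p members. Among the miRNAs counted here and matched by name, the same 7 letters stood 1 base earlier in 3 of another seed family. These were miR-130b-3p, miR-301a-3p and miR-301b-3p, of which the first is shown.
miR-130b-3p: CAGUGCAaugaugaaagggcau

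The hairpins are shown because the arms were compared below, with the mature 3p sequence in capitals and the 5p arm in the stretch before it.
MIR148A: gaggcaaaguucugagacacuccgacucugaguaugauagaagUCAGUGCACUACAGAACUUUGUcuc
MIR148B: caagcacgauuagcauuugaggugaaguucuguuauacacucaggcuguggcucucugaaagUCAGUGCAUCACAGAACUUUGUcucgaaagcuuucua
MIR152: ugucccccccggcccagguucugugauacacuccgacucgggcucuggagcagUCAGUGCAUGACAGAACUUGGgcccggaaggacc
On GRCh37, MIR148A lies at chr7:25989539-25989606 (minus strand), inside an intron of lncRNA gene ENSG00000270933, and the nearest protein-coding gene, NFE2L3, is 202212 bp away. MIR148B lies at chr12:54731000-54731098 (plus strand), inside an intron of COPZ1, and MIR152 at chr17:46114527-46114613 (minus strand), inside one of COPZ2. COPZ1 and COPZ2 are paralogous genes for the zeta subunit of the coatomer, the coat of vesicles that return from the Golgi. None of the hairpins overlapped an annotated UTR or coding exon.

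The libraries held 10495634 to 26211524 miRNA counts. The top 10 miRNAs held 62.9% to 67.4% of the counts in DLD1 and 63.9% to 85.9% in HT29, where replicate 1 of each culture had the higher share. Levels are given as normalized counts-per-million (CPM), which divide counts by the library total times an upper quartile factor computed within each cell line. The factors were 0.746 to 1.17 in DLD1 and 0.522 to 1.66 in HT29. As a check of the labelled cell type, all 9 epithelial and intestinal marker miRNAs reached 10 CPM of the library total in every library. They were led by miR-200c-3p in DLD1 and by miR-200b-3p in HT29. The exception was replicate 1 of HT29 MCS, where miR-192-5p was higher (73849 against 36660 CPM). The summed level of the 9 was 99790 to 114306 CPM in DLD1 2D and 178756 to 181702 CPM in DLD1 MCS. In HT29 it was 73193 to 201580 CPM in 2D and 150892 to 280366 CPM in MCS. Of 7 stromal, endothelial and blood markers, 6 were analysed here. In DLD1, 5 of them stayed under 10 CPM in every library, with miR-150-5p at 0 throughout, and the summed level was 85.8 to 97.6 CPM in 2D and 84.0 to 99.5 CPM in MCS. In HT29, 4 stayed under 10 CPM in every library, and the sum was 8.86 to 28.9 CPM in 2D and 44.8 to 80.3 CPM in MCS. It was led by miR-150-5p except in replicate 2 of 2D, where miR-126-3p was higher (15.3 against 11.3 CPM). The part of these shifts in the results below was not tested.

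In DLD1 cells, miR-148a-3p and miR-152-3p were up-regulated in MCS, whereas the change of miR-148b-3p and miR-148a-5p was within the spread of the libraries. The question was whether the members of 1 seed family respond alike when CRC cells grow as spheroids. In each cell line, miRNAs averaging 10 CPM or more were tested by edgeR's quasi-likelihood test, and were called when the fold change reached 1.5 and the p-value, adjusted by Benjamini-Hochberg over all tested miRNAs, was under 0.05. Of the 5 members, 4 entered the test in DLD1 and 2 were called, both up-regulated. Over all 346 miRNAs tested in DLD1, 143 (41.3%) were called, 103 of them (29.8%) up-regulated and 40 (11.6%) down-regulated, so that 2 of 4 is close to the share of miRNAs at large. Without replicate 2 of 2D, 92 miRNAs and 1 member were called, and in a fit of all 8 libraries 31 miRNAs and 0 members.

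miR-148a-3p, the member best known for acting on the DNA methyltransferases, had 5890 and 4643 normalized CPM in replicates 1 and 2 of DLD1 2D. In DLD1 MCS it had 9275 and 13152 normalized CPM. Both MCS libraries thus lay above both 2D libraries, which was the case for 45.4% of the miRNAs tested in this line (70.8% did not overlap in either direction). The log2 fold change was 1.09 (standard error 0.26) and the adjusted p was 0.000197 (edgeR, quasi-likelihood), and it ranked 54 from the highest of 346. The call depended on the libraries and on the spread that was assumed. Without replicate 2 of 2D the log2 fold change was 0.81 with an adjusted p of 0.179, and in a fit of all 8 libraries together, which shares 1 spread between the lines, it was 1.06 with an adjusted p of 0.499. Under every other alternative the miRNA was called, with log2 fold changes of 0.61 to 1.16.

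miR-152-3p, the member encoded in COPZ2, had 727 and 800.1 normalized CPM in DLD1 2D and 1417 and 1519 in DLD1 MCS. The groups did not overlap, and the MCS libraries differed less from each other than those of miR-148a-3p did. The log2 fold change was 0.94 (standard error 0.23) and the adjusted p was 0.000235 (edgeR, quasi-likelihood), at rank 64 of 346. It was called with each library left out, at 0.75 to 0.90. The call was lost with library totals alone, where the log2 fold change of 0.58 was under 1.5-fold, with an upper quartile of tested miRNAs (0.50, adjusted p = 0.0544), and in the fit of all 8 libraries (0.92, adjusted p = 0.406).

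miR-148b-3p, the member encoded in COPZ1, had 5296 and 5040 normalized CPM in DLD1 2D. In DLD1 MCS it had 4851 and 7579 normalized CPM, so that the MCS libraries lay on both sides of the 2D libraries. The log2 fold change was 0.27 (standard error 0.25, adjusted p = 0.409 in edgeR's quasi-likelihood test), and it turned to -0.14 with library totals alone, -0.22 with an upper quartile of tested miRNAs and -0.15 without replicate 2 of MCS. The median log2 fold change of all miRNAs tested in DLD1 was 0.23.

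Of the 5p arms, miR-148a-5p had 75.8 and 66.5 normalized CPM in DLD1 2D and 69.6 and 105 in DLD1 MCS. These groups overlapped, and the log2 fold change of 0.30 (standard error 0.27, adjusted p = 0.392 in edgeR's quasi-likelihood test) turned to -0.10 with library totals alone, -0.19 with an upper quartile of tested miRNAs and -0.090 without replicate 2 of MCS. miR-148b-5p had 9.52 and 6.19 normalized CPM in 2D and 7.00 and 10.4 in MCS. It was under the mean of 10 CPM and was not tested, and with no filter its log2 fold change was 0.15 (standard error 0.41). The 5p arm of the miR-152 hairpin, miR-152-5p, was at 2.62 to 3.80 normalized CPM in the 4 DLD1 libraries, and its groups overlapped.

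**Figure D1:**
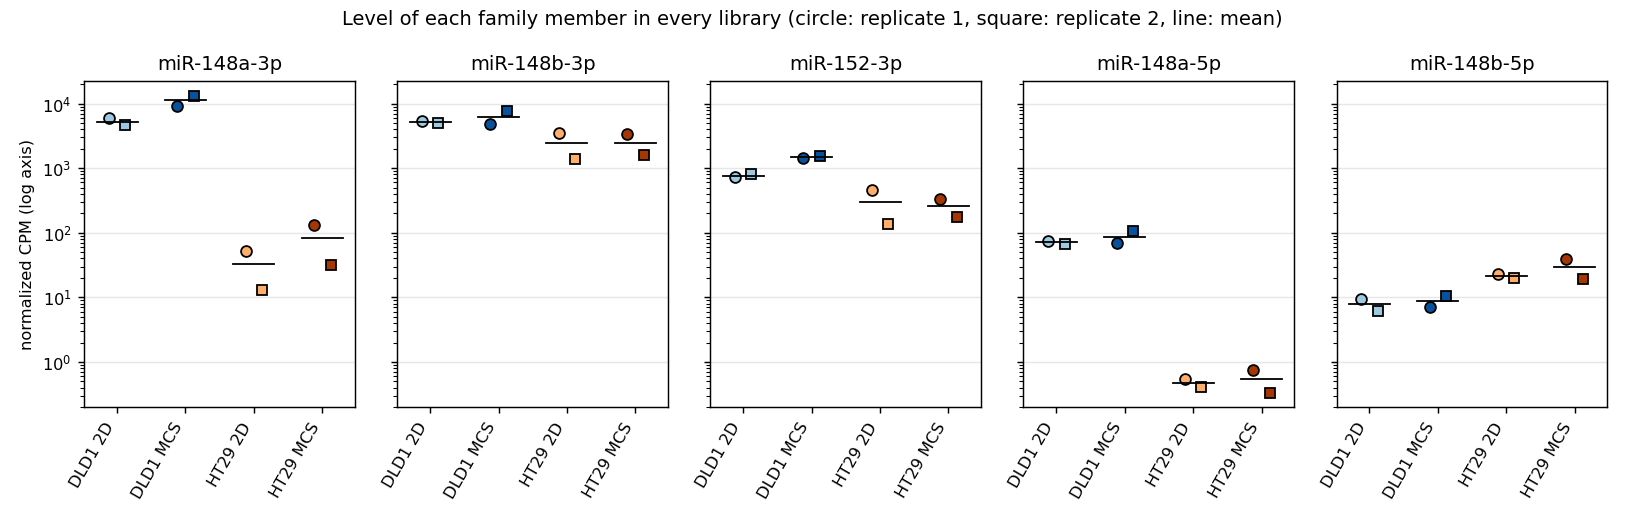
Normalized CPM of the 5 members on a log axis, for each of the 4 groups, with circles for replicate 1, squares for replicate 2 and a line at the mean. In DLD1 both MCS points of miR-148a-3p (9275 and 13152) and of miR-152-3p (1417 and 1519) lie above both 2D points, and in HT29 both arms of miR-148a lie far below their DLD1 levels. The scaling factors were computed within each line, so that points of different lines are not on a common scale. miR-148a-5p reached the mean of 10 CPM through DLD1 alone and so had to differ.

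The direction of the calls over all miRNAs followed the scaling of the DLD1 libraries. The upper quartile over all miRNAs gave 72.0% of the calls as up-regulated, against 55.1% with TMM factors, 64.0% with the size factors of DESeq2 (RLE), 42.0% with library totals alone, 34.5% with an upper quartile of tested miRNAs and 52.2% with DESeq2 itself. Against the first, the median shift of a DLD1 log2 fold change was -0.21, -0.12, -0.37, -0.46 and -0.24, in the order named. miR-148a-3p and miR-152-3p kept a positive fold change under each of them, as the plot of fold changes by scaling shows, while miR-148b-3p and miR-148a-5p did not.

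**Figure D2:**
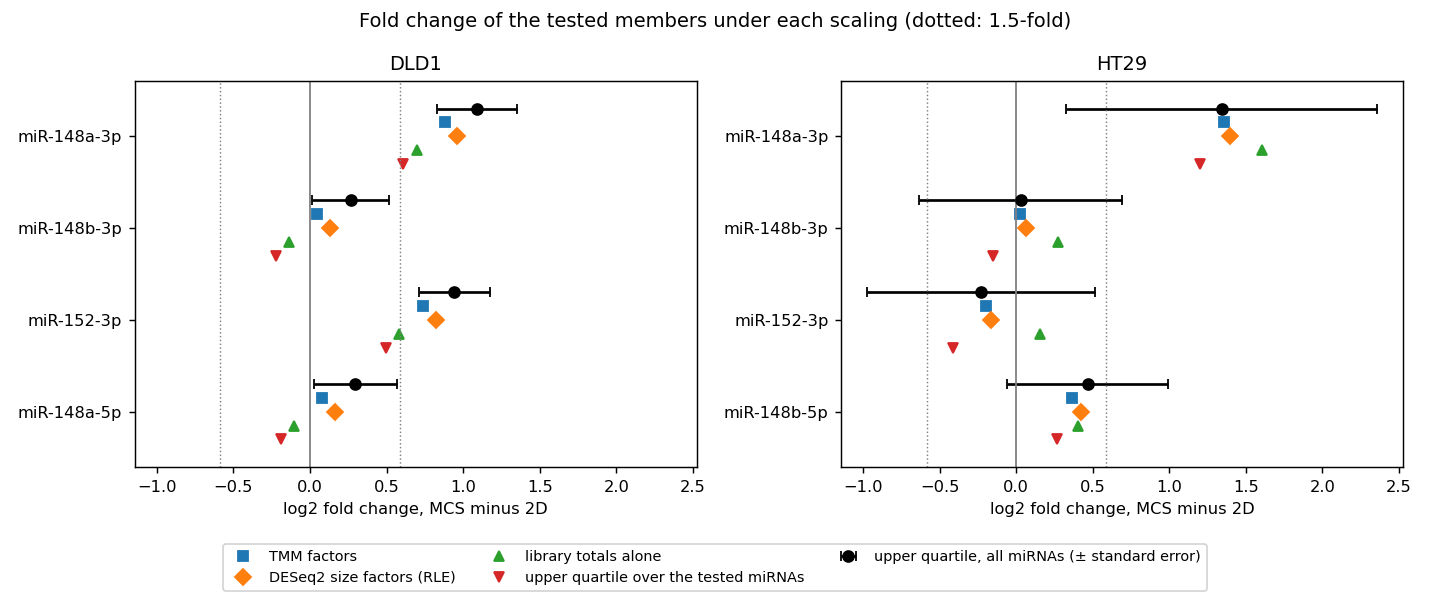
Log2 fold change between MCS and 2D for the members tested in each cell line under 5 scalings, with the standard error on the reported value (black) and dotted lines at 1.5-fold. In DLD1 the points of miR-148a-3p run from 0.61 to 1.09 and those of miR-152-3p from 0.50 to 0.94, while those of miR-148b-3p and miR-148a-5p lie on both sides of 0.

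In HT29 cells, no member passed the test, and the MCS and 2D libraries of each member overlapped by normalized CPM. miR-148a-3p, scarce in this line, had 52.7 and 12.9 normalized CPM in replicates 1 and 2 of 2D and 133 and 32.2 in MCS. Replicate 1 was the higher library in each culture, and the groups overlapped because replicate 2 of MCS lay under replicate 1 of 2D. By CPM of the library total they did not overlap, at 98.9 and 50.1 in MCS against 27.5 and 21.4 in 2D. With library totals alone the log2 fold change was 1.61 and was not called either. How many of all tested miRNAs separate on that scale was not computed. The log2 fold change of 1.34 (standard error 1.02, adjusted p = 0.977 in edgeR's quasi-likelihood test) was not past the threshold, and it ran from -0.053 when replicate 1 of MCS was left out to 2.68 when replicate 1 of 2D was. It ranked 14 from the highest of the 301 miRNAs tested in HT29.

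Of the 5 members, 4 were tested in HT29 and 0 were called by edgeR's quasi-likelihood test, where 0 of 301 miRNAs (0%) passed, 12 (3.99%) had an unadjusted p-value under 0.05, and the smallest adjusted p was 0.553. edgeR's exact test called 5 miRNAs and DESeq2 called 12, with 0 members among them. In the quasi-likelihood test none of the 4 tested members had an unadjusted p-value under 0.05. With the replicate number added as a term of the model, 47 of 301 miRNAs (15.6%) were called, among them miR-148a-3p. No pairing of the libraries by that number is stated. The coefficient of variation between replicates that edgeR fitted was 0.521 in HT29 and 0.193 in DLD1.

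miR-148b-3p was the most abundant member in HT29, with 3441 and 1388 normalized CPM in 2D and 3340 and 1588 in MCS. By normalized CPM the groups overlapped almost fully, and the log2 fold change was 0.029 (standard error 0.66), or 0.27 with library totals alone. By CPM of the library total both MCS libraries lay higher, at 2476 and 2470 against 1798 and 2305 in 2D. The values of miR-152-3p were 466 and 137 normalized CPM in 2D and 338 and 176 in MCS, so that both MCS libraries lay between the 2D libraries. By CPM of the library total, miR-152-3p was slightly higher in MCS, at 250 and 274 against 243 and 227 in 2D. Its log2 fold change of -0.23 (standard error 0.75) turned to 0.16 with library totals alone, 0.90 without replicate 1 of 2D and 0.14 without replicate 2 of MCS. The fold change of miR-148b-3p changed sign as well, to -0.57 without replicate 2 of 2D and -0.64 without replicate 1 of MCS.

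miR-148b-5p passed the filter in HT29, with 22.6 and 19.9 normalized CPM in 2D and 39.4 and 19.3 in MCS. Its groups overlapped, and the log2 fold change of 0.47 (standard error 0.53) turned to -0.16 without replicate 1 of MCS. The adjusted p-values of miR-148b-3p, miR-152-3p and miR-148b-5p were 0.990, 0.977 and 0.977 in edgeR's quasi-likelihood test. miR-148a-5p was counted only 3 and 18 times in 2D and 6 and 9 times in MCS, and was not tested. miR-152-5p had 13 and 73 counts in 2D and 5 and 28 in MCS. At 2.37 and 1.68 normalized CPM in 2D and 0.628 and 1.05 in MCS, it lay lower in MCS without overlap. This pattern was shown by 10.6% of the miRNAs tested in HT29, to which it did not belong. By CPM of the library total its groups overlapped, at 1.24 and 2.79 in 2D and 0.465 and 1.63 in MCS. It was under the mean of 10 CPM and was not tested.

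Whether the response to MCS differed between the cell lines was tested by an interaction term over all 8 libraries, for the 250 miRNAs tested in both lines. Of the 3 members among them, 0 passed, as did 0 of all 250 (0%) in edgeR's quasi-likelihood test at an adjusted p-value under 0.05, while 23 (9.2%) had an unadjusted p-value under 0.05 and DESeq2 called 21. The difference in response, HT29 minus DLD1, was 0.26 on the log2 scale (standard error 1.13) for miR-148a-3p, -0.24 (standard error 0.74) for miR-148b-3p and -1.18 (standard error 0.83) for miR-152-3p. The adjusted p-values were 0.960, 0.953 and 0.749 from edgeR's quasi-likelihood test. The call of miR-152-3p in DLD1 and its lack of one in HT29 were thus not shown to be a difference between the lines. For miR-148a-3p the difference turned to -0.49 without replicate 2 of HT29 2D and -1.05 without replicate 1 of HT29 MCS.

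miR-148a-3p was far lower in HT29 than in DLD1 in either culture, and miR-152-3p was lower in MCS. The lines were compared in each culture with edgeR's quasi-likelihood test over all 8 libraries scaled together, a test that was added after the values had been seen, and the kit version and the medium change with the line. Between HT29 and DLD1, 245 of 397 miRNAs (61.7%) were called in 2D, 120 (30.2%) higher and 125 (31.5%) lower in HT29. In MCS 237 (59.7%) were called, 110 (27.7%) higher and 127 (32%) lower. Since a mean of 10 CPM in either line was enough to be tested, some miRNAs entered through the line in which they were high. Of the 3 members that reached it in both lines, 1 was called in 2D and 2 in MCS. The share called among all miRNAs that reached it in both lines was not computed, so these counts have no like share beside them.

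miR-148a-3p, at 289, 561, 1063 and 861 counts in the HT29 libraries, had between 103309 and 200734 counts in those of DLD1. Its log2 difference, HT29 minus DLD1, was -6.57 (standard error 0.99, adjusted p = 0.000990) in 2D and -6.31 (standard error 0.97, adjusted p = 0.00121) in MCS, both from edgeR's quasi-likelihood test. The 5p arm had 1302 to 1977 counts in the DLD1 libraries and 3 to 18 in those of HT29. It reached the mean of 10 CPM through DLD1 alone and so had to differ, and no test is given for it.

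miR-148b-3p was not called between the lines, with log2 differences of -0.33 (standard error 0.52) in 2D and -0.57 (standard error 0.53) in MCS and adjusted p-values of 0.605 and 0.377 in edgeR's quasi-likelihood test. With library totals alone it was lower in HT29 2D and was called (-1.52, adjusted p = 0.0156), and without replicate 2 of HT29 2D the difference was 0.16. Its 5p arm was at 7.22 to 10.6 CPM of the library total in DLD1 and at 11.8 to 33.0 CPM in HT29. It reached the mean of 10 CPM through HT29 alone, so that the direction was partly set by the filter, and no test is given for it either.

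miR-152-3p was lower in HT29 by the test in MCS, with a log2 difference of -1.76 (standard error 0.59, adjusted p = 0.0326 in edgeR's quasi-likelihood test). The call was lost without replicate 1 of DLD1 MCS (adjusted p = 0.100), replicate 2 of DLD1 MCS (adjusted p = 0.0935) or replicate 2 of HT29 MCS (adjusted p = 0.118). In 2D the difference was -0.58 (standard error 0.58, adjusted p = 0.418), and it was called with library totals alone (-1.89) and without replicate 1 of HT29 2D (-1.71), and was 0.032 without replicate 2 of HT29 2D.

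In DLD1 2D, miR-148a-3p and miR-148b-3p were at the same level within the spread of the libraries, with ranks of 26 and 28 among the miRNAs of replicate 1 and 29 and 28 in replicate 2. In MCS they held ranks 22 and 37 in replicate 1 and 20 and 30 in replicate 2. Next in the order came miR-152-3p, then miR-148a-5p and then miR-148b-5p, in every DLD1 library. In HT29 the order was miR-148b-3p, miR-152-3p, miR-148a-3p, miR-148b-5p and miR-148a-5p, except that in replicate 2 of 2D miR-148b-5p (864 counts) exceeded miR-148a-3p (561 counts). Counts of different miRNAs in 1 library also depend on how well each sequence was ligated and amplified, which was not measured, so the order is one of counts.

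Ratios between members of 1 library do not depend on its scaling. The ratio of miR-148a-3p to miR-148b-3p counts was 1.11 and 0.921 in DLD1 2D and 1.91 and 1.74 in DLD1 MCS. The MCS libraries lay above the 2D libraries, by 1.80-fold (log2 difference 0.85; SD of the log2 ratio 0.19 in 2D and 0.099 in MCS, n = 2 each; exact permutation test, 2-sided, p = 0.333). In HT29 the ratio was 0.0153 and 0.00929 in 2D and 0.0399 and 0.0203 in MCS. These groups did not overlap either, although the normalized levels of miR-148a-3p did. The geometric mean of the ratio in MCS was 2.39-fold that in 2D (exact permutation test, p = 0.333). With 2 libraries against 2, no exact permutation test can give less than 0.3333, and over the 8 ratios compared the smallest Benjamini-Hochberg adjusted value was 0.667, so none of them could pass.

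miR-152-3p relative to miR-148b-3p stood at 0.137 and 0.159 in DLD1 2D and 0.292 and 0.200 in DLD1 MCS. The MCS libraries were higher by 1.64-fold (exact permutation test, p = 0.333), with replicate 1 of MCS well above replicate 2. In HT29 the ratio was 0.135 and 0.0985 in 2D and 0.101 and 0.111 in MCS, so that the MCS libraries lay between those of 2D, and the change was 0.917-fold (exact permutation test, p = 1).

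For the hairpin of miR-148a, the 3p arm outnumbered the 5p arm by 77.7 and 69.8 in DLD1 2D and by 133 and 125 in DLD1 MCS. The MCS libraries lay above the 2D libraries by 1.75-fold (log2 difference 0.81; exact permutation test, p = 0.333). As a share of both arms, miR-148a-5p took 1.27% and 1.41% in 2D (95% Wilson intervals 1.20 to 1.34 and 1.35 to 1.47) and 0.745% and 0.794% in MCS (0.705 to 0.786 and 0.756 to 0.833), and the intervals, which cover counting error only, did not touch between the cultures. In HT29 the same ratio was 96.3 and 31.2 in 2D and 177 and 95.7 in MCS, so that the groups overlapped (exact permutation test, p = 0.667). It rested on 3 to 18 counts of miR-148a-5p, and in replicate 1 of 2D the 5p share of 1.03% had a 95% Wilson interval of 0.350 to 2.98.

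For the miR-148b hairpin, the arm ratios of the cultures overlapped in both lines. The ratio of miR-148b-3p to miR-148b-5p was 556 and 815 in DLD1 2D and 693 and 728 in DLD1 MCS, a 1.05-fold difference with both MCS libraries between those of 2D (exact permutation test, p = 1). In HT29 it was 152 and 69.9 in 2D and 84.7 and 82.1 in MCS, again with the MCS libraries inside the range of 2D (0.809-fold; exact permutation test, p = 1). The ratio was thus lower in every HT29 library than in every DLD1 library, while that of the miR-148a hairpin overlapped between the lines. miR-148b-5p reached the mean of 10 CPM in HT29 alone, and the kit version and the medium change with the line. How many other hairpins separate the lines in this way was not computed, so the difference is only described.

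**Figure D3:**
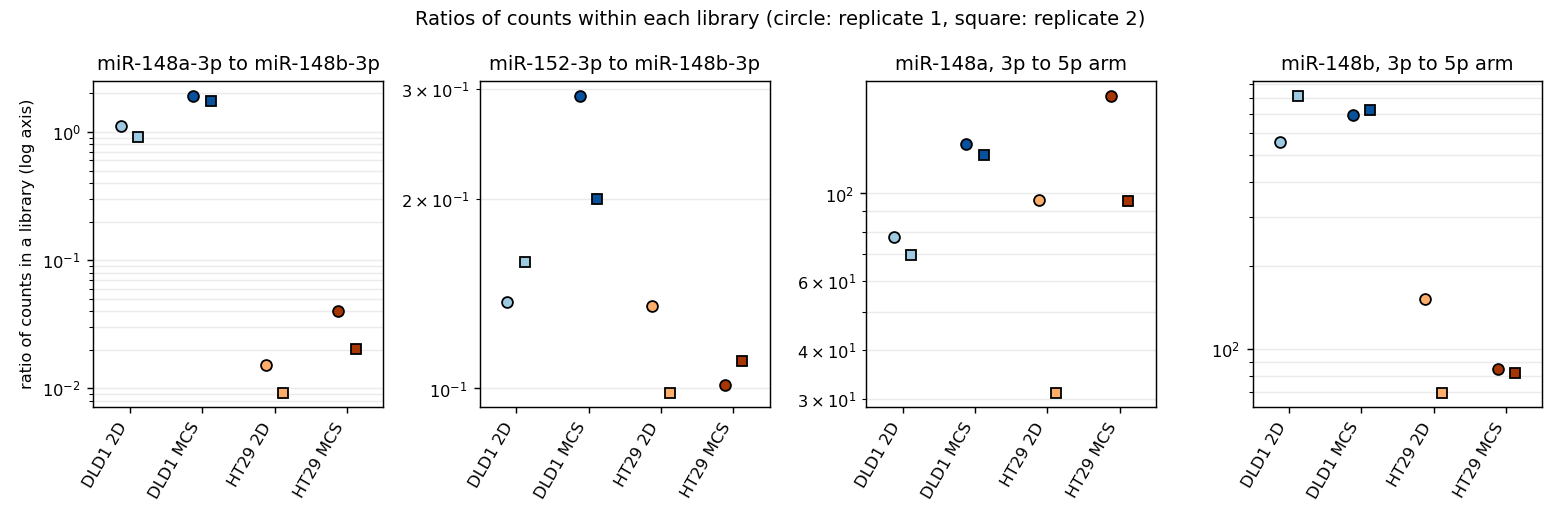
Ratios of counts within each library on log axes, for 3p members against each other and for the arms of the miR-148a and miR-148b hairpins, with circles for replicate 1 and squares for replicate 2. In DLD1 both MCS points lie above both 2D points for miR-148a-3p to miR-148b-3p (1.91 and 1.74 against 1.11 and 0.921) and for the arms of miR-148a (133 and 125 against 77.7 and 69.8), and in HT29 the arms of miR-148b are at 69.9 to 152, below all DLD1 points.

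The 3p members together took 1.27% ± 0.0689 of all miRNA counts in DLD1 2D and 1.63% ± 0.0352 in DLD1 MCS (SD, n = 2). In HT29 their share was 0.231% ± 0.0343 for 2D and 0.281% ± 0.00225 for MCS (SD, n = 2). By these shares the libraries of MCS lay above those of 2D in both lines. By normalized CPM this held in DLD1, where the 3p members summed to 11913 and 10483 in 2D and 15543 and 22251 in MCS, but in HT29 the groups overlapped, at 3960 and 1538 in 2D and 3811 and 1796 in MCS. Of all tested miRNAs, 45.4% in DLD1 and 17.9% in HT29 had both MCS libraries above both 2D libraries by normalized CPM. How many do so by share of the library total was not computed, so the separation by shares has no background beside it. The makeup of this seed family differed between the lines. miR-148a-3p made up 46.9% ± 3.65 of its counts in DLD1 2D and 59.4% ± 0.399 in DLD1 MCS, but 1.08% ± 0.349 in HT29 2D and 2.65% ± 1.21 in HT29 MCS (SD, n = 2).

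The share of miR-148b-3p was 46.3% ± 2.56 in DLD1 2D and 32.6% ± 2.02 in DLD1 MCS, and it was 88.6% ± 2.38 in HT29 2D and 88.0% ± 0.550 in HT29 MCS (SD, n = 2). That of miR-152-3p was 6.87% ± 1.08 and 7.97% ± 1.62 in DLD1 and 10.3% ± 2.03 and 9.33% ± 0.657 in HT29, with 2D first (SD, n = 2), and its groups overlapped in both lines. In DLD1 MCS the seed family was thus mostly miR-148a-3p, and in HT29 of both cultures mostly miR-148b-3p.

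**Figure D4:**
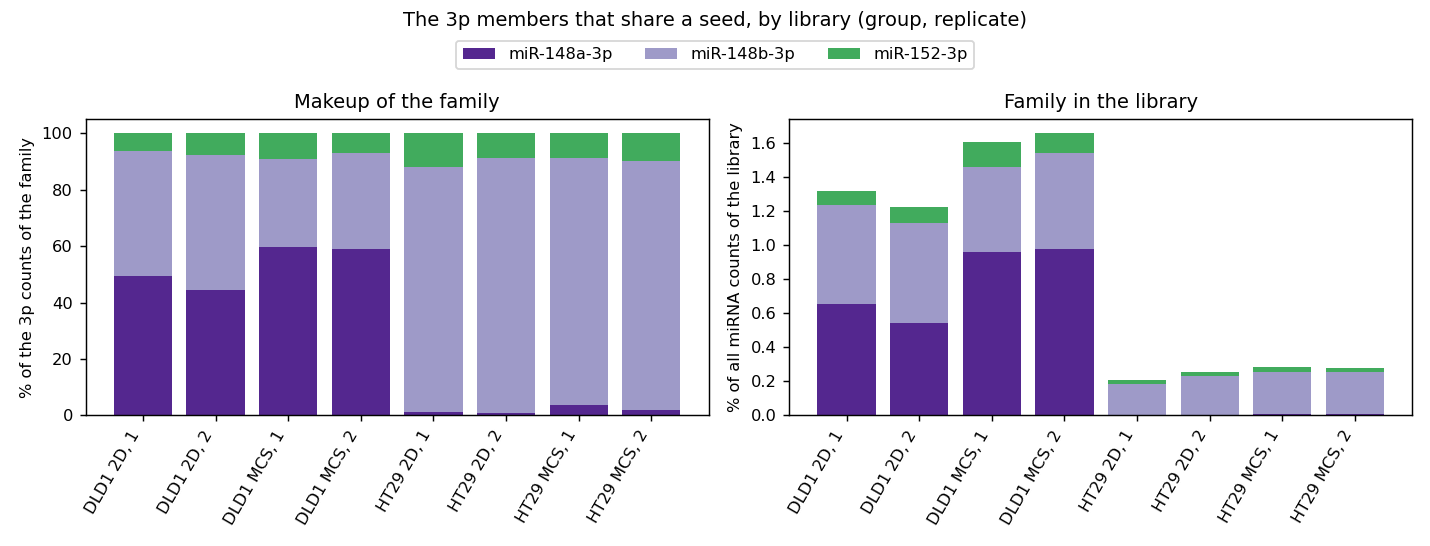
Stacked shares of miR-148a-3p, miR-148b-3p and miR-152-3p in each library, as a percentage of their summed counts (left) and of all miRNA counts of the library (right). miR-148a-3p takes 44.3% to 59.7% of the family in the DLD1 libraries and 0.838% to 3.50% in those of HT29, and the family as a whole takes 1.22% to 1.66% of a DLD1 library against 0.207% to 0.283% of an HT29 library.

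Over the 8 libraries the mean level was 4149 normalized CPM for miR-148a-3p and 4066 for miR-148b-3p, an order set by DLD1, since miR-148b-3p was the higher of them in every HT29 library. The miRNAs with the pattern most like that of miR-148a-3p were found by Pearson's r of log2(normalized CPM + 1) over the 8 libraries after the mean of each line was subtracted. They were miR-146b-5p (r = 0.960), miR-182-5p (0.958), miR-186-5p (0.954), miR-203b-3p (0.953) and miR-128-3p (0.931). The 8 points share their libraries and scaling factors, and miR-148a-3p spread more widely over the HT29 libraries than over those of DLD1, so the values are given as descriptions. In DLD1, miR-146b-5p, miR-203b-3p and miR-182-5p were up-regulated in MCS, with log2 fold changes of 1.44, 1.32 and 0.97, and miR-186-5p (0.36) and miR-128-3p (0.41) were not called. Of all miRNAs tested in DLD1, 29.8% were up-regulated. The 5 were chosen for likeness to miR-148a-3p in these same libraries, so that a shared rise is partly built into the choice. Without replicate 1 or replicate 2 of 2D, or with an upper quartile of tested miRNAs, miR-182-5p was not called, and in the fit of all 8 libraries 0 of the 5 were. In HT29 their log2 fold changes were 0.39 to 0.72 and 0 of the 5 were called by edgeR's quasi-likelihood test. Of the family, miR-148b-3p was 20th in this order (r = 0.837) and miR-152-3p 24th (r = 0.806).

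Since the family is known for acting on DNA methyltransferases, 8 other miRNAs known as regulators of these enzymes were listed beside it. The list was chosen with earlier results of these data known, so its counts and medians are descriptions and no test of such regulators. In DLD1, 6 of the 8 were tested, 4 were up-regulated and 0 were down-regulated, against 29.8% and 11.6% of all tested miRNAs. Those up-regulated were miR-29a-3p (log2 fold change 0.99), miR-29b-3p (1.02) and miR-29c-3p (1.34), which target DNMT3A and DNMT3B, and miR-101-3p (1.41), better known for repressing EZH2, a histone methyltransferase. The paper lists miR-29b in clusters with miR-29a and with miR-29c, so the miR-29 members are not separate cases. miR-126-3p (0.48) and miR-185-5p (-0.10) were not called, and miR-143-3p and miR-342-3p were too scarce to be tested. The median log2 fold change of the 6 was 1.00, beside 0.23 over all miRNAs tested. Under the 4 other scalings in edgeR the 4 kept a positive fold change, and 4 were called with each except the upper quartile of tested miRNAs, which called miR-29c-3p and miR-101-3p. Without replicate 2 of 2D the same pair was called, without replicate 1 of MCS miR-29b-3p was not, and the fit of all 8 libraries called miR-101-3p alone. In HT29, 5 of the 8 were tested and 0 were called by edgeR's quasi-likelihood test, with a median log2 fold change of 0.26 beside 0.029 over all. The methyltransferases themselves were not measured in these libraries.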

How the data were processed

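Small RNA libraries of DLD1 and HT29 in 2D and MCS were grouped by the cell line, culture and replicate named in their labels. The authors trimmed the reads with Cutadapt, aligned them to the human genome (hg19) with Bowtie2 and then to miRBase, and deposited raw counts of reads for each mature miRNA, without normalization or pooling. The handling of reads that match several miRNAs or either strand is not given in the sources used here. The tables of single libraries held the same values as the common table (0 of 12512 differed). In the common table, 15 entries that name no miRNA, with 2590 counts (0.00988%) in replicate 2 of HT29 2D and 0 in the others, were left out.

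Counts were analysed with edgeR 4.0.16 in R 4.3.3, with upper quartile factors over all miRNAs counted in the line. Those averaging 10 CPM or more were tested in glmQLFit and glmQLFTest, without a term for the replicate number, and p-values were adjusted by Benjamini and Hochberg over all of them. Ratios within libraries were compared by exact 2-sided permutation tests. The scripts were tested on simulated counts. Recovery of changed miRNAs was required for DLD1 at its fitted spread and for HT29 at a lowered spread. It was not required for HT29 at its fitted spread or for the interaction. The alternatives were TMM, RLE, library totals, an upper quartile over tested miRNAs, no filter, 10 CPM in every library, edgeR's exact test, DESeq2 1.42.0, the replicate number as a block, all 8 libraries in 1 fit, the unadjusted p-value, 0.5 added to counts for ratios, and each library left out. The comparison of the lines in each culture, with its alternatives, was added after the values were seen.

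Named miRNAs were the 5 members, other miRNAs of their seed or hairpins, the 5 most like miR-148a-3p, the member with the highest mean over the 8 libraries, and a list of regulators of DNA methyltransferases. The members and all lists were chosen with earlier results of these data known. Precision is limited by the spread of 2 replicates, at 10495634 to 26211524 miRNA counts per library, and for scarce miRNAs such as miR-148a-5p in HT29 also by their counts. Hairpin positions came from the GENCODE annotation lifted to GRCh37. Figures were drawn with matplotlib 3.10.9 in Python 3.11.15.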

Additional observations from a re-analysis of the deposited data

How the results depend on the processing

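In DLD1, 1 member instead of 2 was called with library totals alone, 1 with an upper quartile of tested miRNAs, and 0 in the fit of all 8 libraries, which called 31 miRNAs against 143. With each library left out, 1 to 2 members and 92 to 124 miRNAs were called, the fewest without replicate 2 of 2D. In HT29, 0 members and 0 miRNAs were called by edgeR's quasi-likelihood test. Of the tested miRNAs, 15 were called with no filter, 5 by the exact test, 12 by DESeq2, 3 in the fit of all 8 libraries, 12 at the unadjusted p-value, and 0 to 2 with each library left out. The response of the lines differed for 0 members under every alternative run. The cause of these changes was not tested.

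Replicate numbers are shared between the cultures without a stated pairing. Deviations of same-numbered libraries from the group means had a correlation of 0.321 in DLD1 and 0.789 in HT29. With the replicate number as a block, 1 member was called in HT29, miR-148a-3p (1.33, adjusted p = 0.000613 in edgeR's quasi-likelihood test), among 47 miRNAs, and 2 members among 139 miRNAs in DLD1. Of the 5 regulators of DNA methyltransferases tested in HT29, the block called 2 instead of 0, miR-29b-3p (0.98, adjusted p = 0.0159) and miR-29c-3p (1.57, adjusted p = 5.15e-05), by the same test. The response of the lines differed with the block for 40 of 250 miRNAs (16%) instead of 0, and for 0 members, with miR-152-3p at -1.02 (adjusted p = 0.0785 in edgeR's quasi-likelihood test). Within numbers 1 and 2, miR-148a-3p in MCS was 2.53 and 2.50 times its 2D level in HT29, and 1.57 and 2.83 times in DLD1. The ratio of miR-148a-3p to miR-148b-3p was higher in MCS by 2.61 and 2.18 times in HT29 and 1.72 and 1.88 times in DLD1.

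With library totals alone and an upper quartile of tested miRNAs, log2 fold changes in DLD1 turned to -0.10 and -0.19 for miR-148a-5p and -0.14 and -0.22 for miR-148b-3p. Others that changed sign were miR-152-3p in HT29, at 0.16 with library totals alone, miR-148b-3p in HT29, at -0.15 with an upper quartile of tested miRNAs, -0.044 in DESeq2 and -0.0051 in the fit of all 8 libraries, and its difference in response, at 0.41 with library totals alone. With each library left out, log2 fold changes in DLD1 ran from 0.76 to 1.16 for miR-148a-3p, -0.090 to 0.40 for miR-148a-5p and -0.15 to 0.38 for miR-148b-3p. In HT29 they ran from -0.053 to 2.68 for miR-148a-3p, -0.64 to 0.82 for miR-148b-3p, -0.16 to 0.87 for miR-148b-5p and -0.94 to 0.90 for miR-152-3p. The differences in response ran from -1.05 to 1.62 for miR-148a-3p, -0.82 to 0.59 for miR-148b-3p and -1.84 to -0.018 for miR-152-3p, and those between the lines in 2D from -1.12 to 0.16 for miR-148b-3p and -1.71 to 0.032 for miR-152-3p. The log2 difference of the ratio of arms of miR-148b ran from -0.20 to 0.35 in DLD1 and -0.87 to 0.25 in HT29, and that of miR-152-3p to miR-148b-3p from -0.35 to 0.10 in HT29. The ratio of miR-148a-3p to miR-148b-3p, at 0.71 to 0.98 in DLD1 and 0.77 to 1.74 in HT29, and the ratio of arms of miR-148a, at 0.73 to 0.89 and 0.43 to 2.06, kept their sign. Depth limited miR-148a-5p in HT29, with 3 to 18 counts, and reads of 1 member counted on another could not be told apart in the counts.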
